A study of Homo sapiens with 4 samples.

Results

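The 10 genes described here encode the enzymes that write, maintain and remove DNA methylation, together with their closest helper proteins. They were taken by symbol. No measured value was part of the rule, but members and gene lists were chosen with earlier results of these data known. Each symbol of the 10 genes matched exactly 1 of the 60671 rows of the expression table. They are the methyltransferases DNMT1, DNMT3A and DNMT3B, the catalytically inactive DNMT3L, the maintenance factor UHRF1, the dioxygenases TET1, TET2 and TET3, and the glycosylases TDG and MBD4. Their transcripts were measured by sequencing of poly(A)-selected RNA in 4 libraries of the human embryonic stem cell line H9.

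The libraries formed 2 groups of 2. The first group was labelled as control, and the study describes the control of this comparison as mock cells. That is its name elsewhere for H9 clones that received an empty CRISPR vector. Whether the labelled control was such a clone is not stated in the sources. The second group, called KO+OE here, carried an edited CFIm25 gene together with 3Flag-CFIm25, a tagged cDNA copy of the same gene delivered by lentivirus. CFIm25, encoded by NUDT21, is the subunit of cleavage factor I that helps to choose where a transcript is cut and polyadenylated. The KO+OE cells derived from 1 edited clone whose remaining CFIm25 protein was scarce and shortened at its N terminus, and the transgene was driven by a constitutive promoter. The edit is a knockout according to the sample titles and a knockdown according to the series title. Edited cells without the transgene were not analysed here, so the comparison is of re-expressing cells with control cells. Nothing in the sources says that the replicates of a group were separate cultures, so p-values measure only the spread between these libraries, which may be technical.

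Values are read as TPM, a unit that is per transcript length and has nearly the same total in every library, so levels can be compared between genes. The depth of the libraries is unknown. The libraries resembled each other: between 12179 and 12332 genes reached 1 TPM, and log2(TPM + 1) of the 12319 genes tested differed on average by 0.202 between the controls, 0.196 between the KO+OE libraries and 0.199 to 0.202 across the groups. Mitochondrial transcripts took 21.0% and 21.1% of the controls and 21.6% and 22.1% of KO+OE, without overlap, and rescaling without them turned the sign of none of the 7 enzymes tested. All 8 pluripotency markers were present, from SALL4 with the lowest mean of 16.8 TPM to POU5F1 with up to 2212.38 TPM. Of 9 germ layer markers only GATA6 reached a mean of 1 TPM, at 4.35 to 8.39 TPM, and SOX17 was listed at 0 throughout. Among 5 fibroblast markers COL1A1 stood at 53.86 to 55.6 TPM in every library while LUM was listed at 0, and the summed level of these markers was 67.81 to 68.59 TPM in the controls and 67.17 to 68.77 TPM in KO+OE. NUDT21 itself was at 160.67 and 152.2 TPM in the controls and at 162.09 and 156.6 TPM in KO+OE, with overlap of the groups (log2 fold change 0.03, 95% interval -0.09 to 0.14, limma adjusted p = 0.980). Reads from the edited gene and from the transgene cannot be told apart in these values, and the sign of this difference turned when control replicate 2 was left out (-0.012).

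DNA methylation in mammals is set at CpG sites by DNMT3A and DNMT3B, whose activity DNMT3L stimulates. At each replication it is copied onto the new strand by DNMT1, which UHRF1 brings to hemimethylated DNA. TET enzymes oxidise the methyl group step by step, and TDG and MBD4 are glycosylases that cut out modified or mismatched bases so that base excision repair can restore an unmethylated cytosine. Human embryonic stem cells are known for abundant DNMT3B and for methylation of cytosines outside CpG sites as well.

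CFIm25 binds the RNA motif UGUA, usually upstream of the cleavage site, so the 3′ ends of these transcripts are shown first. The letters TGTA, the DNA spelling of the motif, were searched on the transcript strand only in the last 100 bases of the GENCODE release 44 canonical transcript of each gene. At least 1 match was found for 5 of the 10 genes, against 51.8% of 19894 protein-coding transcripts. DNMT1 held 3 matches, a number of 2 or more being found in 19.1% of protein-coding transcripts. UHRF1, DNMT3A, TET1 and TET3 held 1 each. No TGTA lay in this window of DNMT3B, DNMT3L, TET2, TDG or MBD4. The poly(A) signal AATAAA stood within the last 50 bases of 8 genes, DNMT3B had the variant ATTAAA there, and DNMT3L had neither. The 30 bases that start at a match are printed 5′ to 3′ with the motif in capitals, 1 site per gene with a match. The site starts 37 bases before the end of the DNMT1 transcript, 73 before that of UHRF1, 57 before that of DNMT3A, 87 before that of TET1 and 72 before that of TET3. The model of UHRF1 is marked as only partly lifted in this annotation.
DNMT1: TGTAatatttcttcaaataaatctctccta
UHRF1: TGTAggctttttctaaagtccagtactttg
DNMT3A: TGTActtgtgctggagaacacttgaataaa
TET1: TGTAtgctggctacactgcttttagaatgc
TET3: TGTAttactcctggtatctttaaaatattg
A match is a description of letters and not a measured binding site, and the expression table holds no measure of where transcripts were cut. For edited cells without the transgene, the study reported insignificant changes of polyadenylation site use from sequencing of 3′ ends.

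The 10 transcripts covered a wide range of levels, and the range was set by the methyltransferases at the top and by TET2 at the bottom. DNMT3B was the most abundant, with a mean of 221 TPM over the 4 libraries, rank 513 of the 12319 genes tested. It was 5.90 times as abundant as DNMT1, which had a mean of 37.5 TPM. DNMT1 was in turn 3.34 times above DNMT3A (mean 11.2 TPM), and DNMT3A 5.11 times above TDG (mean 2.20 TPM). TDG stood 1.68 times above UHRF1 (mean 1.31 TPM). Each of these 4 steps kept its order in 4 of 4 libraries.

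The next genes kept no order over all 4 libraries. UHRF1, TET1 (mean 1.18 TPM), MBD4 (mean 1.14 TPM) and TET3 (mean 0.965 TPM) lay close together. UHRF1 exceeded TET1 in 2 of 4 libraries, both of KO+OE, and TET1 exceeded MBD4 in 2 of 4, both controls. MBD4 exceeded TET3 in 3 of 4. TET3 was 4.71 times as abundant as DNMT3L (mean 0.205 TPM), and DNMT3L 5.47 times as abundant as TET2 (mean 0.0375 TPM), with this order in 4 of 4 libraries. Along the 10 genes, the level was only weakly ordered by the GC content of the transcript (Spearman's rho 0.212, n = 10) or by its length (rho -0.0545). Over 12147 genes tested with a transcript the same coefficients were 0.275 and -0.192. These are descriptions across genes that share the same 4 libraries.

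**Figure D1:**
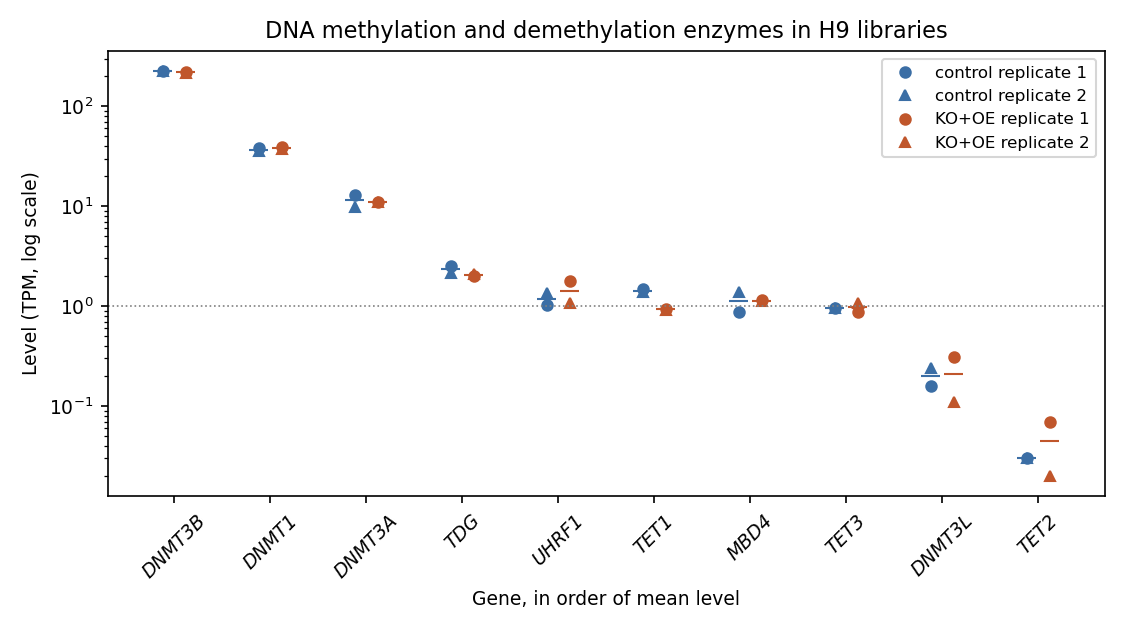
Level of each enzyme transcript in the 4 libraries (TPM, log scale), with genes in order of their mean. Points are libraries, short bars are group means of 2 libraries, and the dotted line marks 1 TPM, the mean needed for testing. DNMT3B lies near 221 TPM and TET2 near 0.0375 TPM. The groups do not overlap for DNMT3B, TET1 and TDG, where 34.1% of all genes tested did not.

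The comparison of KO+OE with control asked whether any of these transcripts differed when CFIm25 was edited and put back. None of the 7 enzymes that reached a mean of 1 TPM passed the test. DNMT3B, the most abundant, had means of 224 TPM in the controls and 218 TPM in KO+OE, and the lowest ratio of the 10 was that of TET1, whose KO+OE mean was 0.648 of the control mean. The test was limma on log2(TPM + 1), with p-values adjusted over all 12319 genes by the Benjamini-Hochberg method. 0 of 7 enzymes had an adjusted p under 0.05, where 0.00812% of all genes tested did. That share is a single gene, AC125388.1, named here after its values were seen: it was listed at 0 in both controls and stood at 8.63 and 8.22 TPM in KO+OE. At an unadjusted p under 0.05 the count was again 0 of 7, where 5.33% of all genes passed.

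The signs were mixed, with 3 enzymes higher and 4 lower in KO+OE and a median log2 fold change of -0.04, beside -0.01 over all genes tested, of which 54.5% were below 0. The values of the 2 groups did not overlap for 3 of 7 enzymes, where 34.1% of all genes did not. Of all genes tested, 19.6% were lower without overlap and 14.5% were higher without overlap. All 3 enzymes without overlap, DNMT3B, TET1 and TDG, were lower in KO+OE. TET1 entered this count through its control values, its KO+OE mean of 0.93 TPM being below the filter. For all 7 the 95% interval of the difference lay within a 2-fold change on this scale, as it did for 92.6% of genes tested. With a pseudocount of 0.1 this held for 4 of 7, since the intervals of TET1 (-1.41 to 0.25), UHRF1 (-0.76 to 1.21) and MBD4 (-0.94 to 1.01) then passed 2-fold. That of UHRF1 also reached 1.03 without control replicate 2. TET3, DNMT3L and TET2 fell below the filter and are described from a fit without it.

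**Figure D2:**
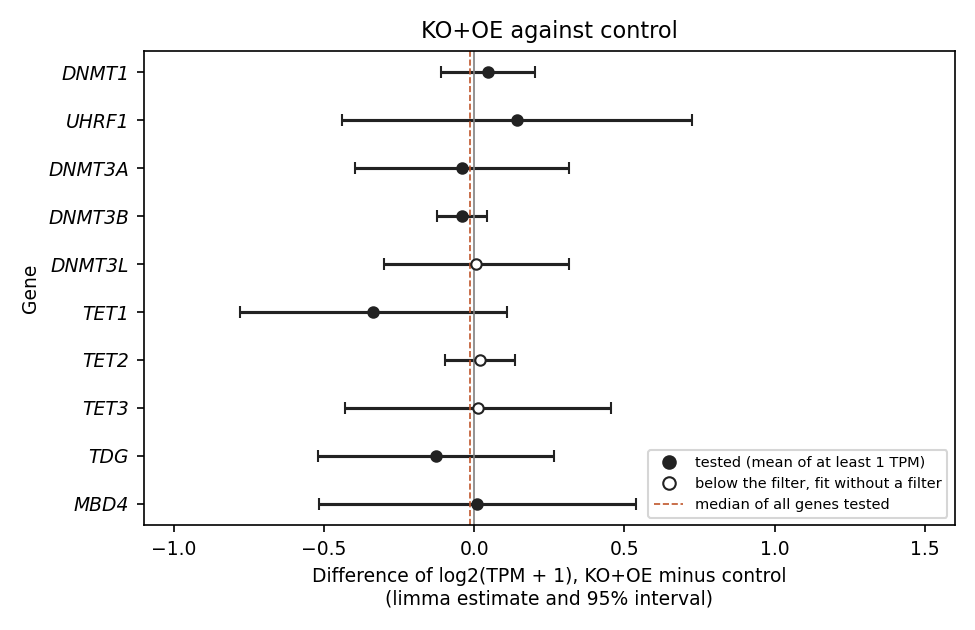
Difference of log2(TPM + 1) between KO+OE and control for the 10 enzymes, with limma's 95% interval. Filled points passed the filter of 1 TPM, open points are TET3, DNMT3L and TET2 from the fit without a filter, and the dashed line is the median of all genes tested (-0.01). Every interval crosses 0, and that of TET1 reaches from -0.78 to 0.11.

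Of the de novo enzymes, DNMT3B (ENSG00000088305, RefSeq GRCh38.p14 chromosome 20, 32762385 to 32809356) was also the most precisely measured. It was at 225.23 and 222.76 TPM in the controls and at 220.35 and 215.68 TPM in KO+OE. Both KO+OE libraries were thus below both controls, by a margin of a few TPM. The group means were 224 ± 1.75 and 218 ± 3.30 TPM (SD, n = 2 each). The log2 fold change was -0.04 with a 95% interval of -0.12 to 0.04, and the limma adjusted p was 0.948.

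DNMT3A (ENSG00000119772, chromosome 2, 25227874 to 25342590), the second active de novo enzyme, was at 13.0 and 9.89 TPM in the controls and at 10.95 and 11.09 TPM in KO+OE. The controls lay on either side of the KO+OE pair. The means were 11.4 ± 2.20 and 11.0 ± 0.0990 TPM (SD, n = 2 each), and the log2 fold change of -0.04 had an interval of -0.39 to 0.32 (limma adjusted p = 0.990). Its sign rested on the choice of control, since the value was 0.14 if control replicate 1 was left out and -0.22 if control replicate 2 was. DNMT3B was 17.3 and 22.5 times as abundant as DNMT3A in the controls and 20.1 and 19.4 times in KO+OE. The log2 of this ratio differed by 0.0021 between the groups (exact two-sided permutation p = 1), and leaving out 1 control moved the difference to between -0.19 and 0.19.

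DNMT3L (ENSG00000142182, chromosome 21, 44246339 to 44261897) has no catalytic activity of its own and acts as a cofactor in germ cells and early embryos. It was at 0.16 and 0.24 TPM in the controls and at 0.31 and 0.11 TPM in KO+OE. The highest and the lowest of these values were both in KO+OE libraries. Its antisense transcript DNMT3L-AS1 was listed at 0 in 3 libraries and at 0.33 TPM in KO+OE replicate 1, the library with the highest DNMT3L. No strand marking is described for these libraries, so reads of the pair cannot be told apart. The fitted difference was 0.01, with an interval of -0.30 to 0.32 (limma adjusted p = 0.995).

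The maintenance pair was unequal in level. DNMT1 (ENSG00000130816, chromosome 19, 10133346 to 10194953), which copies methylation onto newly made strands, was at 37.88 and 35.85 TPM in the controls and at 39.2 and 37.01 TPM in KO+OE. The groups overlapped, with means of 36.9 ± 1.44 and 38.1 ± 1.55 TPM (SD, n = 2 each). The log2 fold change was 0.05 (interval -0.11 to 0.20, limma adjusted p = 0.971), and it remained above 0 with any 1 library left out, at 0.006 to 0.087.

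UHRF1 (ENSG00000276043, chromosome 19, 4903080 to 4962154), which recruits DNMT1 to hemimethylated sites, was at 1.03 and 1.34 TPM in the controls and at 1.8 and 1.07 TPM in KO+OE. The highest value came from KO+OE replicate 1, while KO+OE replicate 2 lay between the controls. The means were 1.19 ± 0.219 and 1.44 ± 0.516 TPM (SD, n = 2 each). The log2 fold change of 0.14 had an interval of -0.44 to 0.73 (limma adjusted p = 0.980). Leaving out KO+OE replicate 1 gave -0.074, and leaving out KO+OE replicate 2 gave 0.36. DNMT1 was 36.8 and 26.8 times as abundant as UHRF1 in the controls and 21.8 and 34.6 times in KO+OE, a wide spread within each group. The related UHRF2 was at 1.56 and 1.37 TPM in the controls and at 1.43 and 1.2 TPM in KO+OE.

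TET1 (ENSG00000138336, chromosome 10, 68560337 to 68694487), the TET enzyme best known in pluripotent cells, was at 1.47 and 1.4 TPM in the controls and at 0.94 and 0.92 TPM in KO+OE. Both KO+OE libraries were below both controls, and the replicates of each group lay close together. The means were 1.44 ± 0.0495 and 0.93 ± 0.0141 TPM (SD, n = 2 each), a ratio of 0.648. Since the KO+OE mean was below 1 TPM, TET1 passed the filter through its control values. The log2 fold change was -0.34 with an interval of -0.78 to 0.11, and neither the unadjusted p of 0.110 nor the limma adjusted p of 0.932 passed the threshold. Of 2111 genes with a mean of 1 to 2 TPM, 10.8% had a fold change at or below that of TET1, and 18.2% were lower in KO+OE without overlap.

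The size of the TET1 value depended on how low values were treated. It was -0.58 with a pseudocount of 0.1 and -0.12 with a pseudocount of 5. With any 1 library left out it was between -0.36 and -0.31. limma draws the spread of each gene towards that of genes of like level, and the median difference between the controls was 0.206 on the log2 scale for genes of 1 to 2 TPM. When the spread was not tied to the level, the interval for TET1 narrowed to -0.52 to -0.15, with an unadjusted p of 0.00801 and an adjusted p of 0.852, in a fit where 688 genes had an unadjusted p under 0.05. Over the alternatives the adjusted p of TET1 was 0.852 to 0.953.

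TET3 (ENSG00000187605, chromosome 2, 73983631 to 74135498), known from the oocyte and zygote, was at 0.96 and 0.95 TPM in the controls and at 0.87 and 1.08 TPM in KO+OE. The KO+OE libraries lay on either side of the controls, and the difference was 0.01 (interval -0.43 to 0.45, limma adjusted p = 0.993). The end of TET3 overlaps BOLA3 (74135400 to 74147912), which was at 40.57 to 46.14 TPM, and without strand its share in the reads of that stretch cannot be told apart. TET2 (ENSG00000168769, chromosome 4, 105145875 to 105279803), best known from blood, was at 0.03 TPM in both controls and at 0.07 and 0.02 TPM in KO+OE. These values are close to the rounding of the table, and the fitted difference was 0.02 (interval -0.10 to 0.14, limma adjusted p = 0.931).

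Summed over the TET genes, the level was 2.46 and 2.38 TPM in the controls and 1.88 and 2.02 TPM in KO+OE. The groups did not overlap, and the exact two-sided permutation p of 0.333 is the smallest that 2 against 2 libraries can give. TET1 made up 59.8% and 58.8% of this sum in the controls and 50% and 45.5% in KO+OE. TET3 was thus the larger part beside TET1 in every library, and in KO+OE replicate 2 it exceeded TET1.

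Of the glycosylases, TDG (ENSG00000139372, chromosome 12, 103965872 to 103988874) removes the oxidised bases that TET enzymes make. It was at 2.52 and 2.16 TPM in the controls and at 2.0 and 2.11 TPM in KO+OE. Both KO+OE libraries lay below both controls, the nearest pair by only a few hundredths of a TPM. The means were 2.34 ± 0.255 and 2.06 ± 0.0778 TPM (SD, n = 2 each), with a log2 fold change of -0.13 (interval -0.52 to 0.27, limma adjusted p = 0.966). The value was -0.05 with control replicate 1 left out and -0.20 with control replicate 2 left out.

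MBD4 (ENSG00000129071, chromosome 3, 129430947 to 129439948) binds methylated CpG sites and removes thymine from mismatches there. It was at 0.88 and 1.39 TPM in the controls and at 1.15 and 1.12 TPM in KO+OE, values that the controls enclosed. The log2 fold change was 0.01 (interval -0.52 to 0.54, limma adjusted p = 0.996), which became -0.16 with control replicate 1 left out and 0.18 with control replicate 2 left out. The sum of TDG and MBD4 was 3.4 and 3.55 TPM in the controls and 3.15 and 3.23 TPM in KO+OE, without overlap (exact two-sided permutation p = 0.333).

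**Figure D3:**
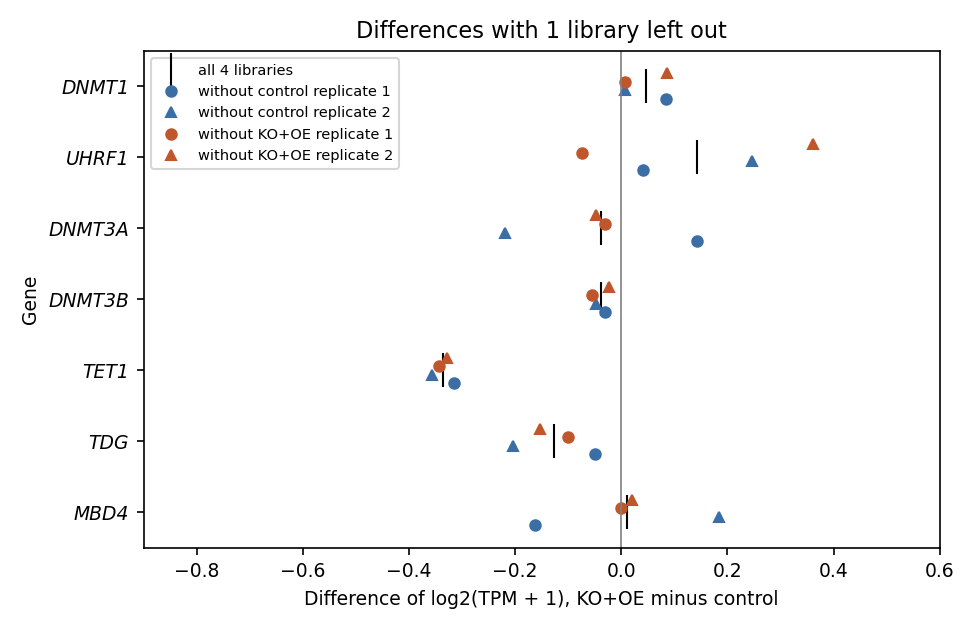
Difference of log2(TPM + 1) between KO+OE and control for the 7 enzymes tested, with all 4 libraries (bars) and with each library left out in turn (points). DNMT3B, TET1 and TDG stay below 0 and DNMT1 above 0, while UHRF1, DNMT3A and MBD4 change sign.

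The balance between enzymes that add and enzymes that oxidise methyl groups was dominated by DNMT3B. The summed level of DNMT1, DNMT3A and DNMT3B was 276.11 and 268.5 TPM in the controls and 270.5 and 263.78 TPM in KO+OE (exact two-sided permutation p = 0.667). DNMT3B made up 81.6% and 83.0% of it in the controls and 81.5% and 81.8% in KO+OE. This sum was 112 and 113 times that of the TET genes in the controls and 144 and 131 times in KO+OE. On the log2 scale the ratio of TETs to DNMTs was -6.81 and -6.82 in the controls and -7.17 and -7.03 in KO+OE, a difference of -0.28 (exact two-sided permutation p = 0.333, the smallest possible). It came to -0.21 if KO+OE replicate 1 was left out and to -0.35 if KO+OE replicate 2 was. The TPM values of the numerator are low, and adding 1 TPM to each term brought the difference to -0.19.

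Pseudogene copies were listed at or near 0. DNMT3AP1, TDGP1 and UHRF2P1 were listed at 0 in all libraries, and TET1P1 was at 0.07 TPM in KO+OE replicate 1 and at 0 elsewhere. TET2-AS1, antisense to TET2, was listed at 0 throughout. Reads of a near-identical copy could still have been assigned to or taken from a parent gene by the counting, which was not tested.

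The enzymes work with partners, and of the 5 lists of pathway genes examined beside them none held a gene that passed the test. At an unadjusted p under 0.05 the count was 0 in each list as well, where 5.33% of all genes passed. Among 7 proteins that read methylated DNA or resemble such readers, 5 were tested, with 2 higher, 3 lower and a median of -0.05. Without control replicate 2 all 5 were lower. MBD3, a subunit of the NuRD complex, was the most abundant, at 178.38 and 176.93 TPM in the controls and at 160.09 and 176.1 TPM in KO+OE. MBD1, which binds methylated CpG, was at 17.05 and 17.47 TPM in the controls and at 17.74 and 15.65 TPM in KO+OE. MBD3 did not overlap between the groups, the only 1 of 5 here, where 34.1% of all genes tested did not. Its value in KO+OE replicate 1 lay well below those of the other libraries, with a log2 fold change of -0.08 (limma adjusted p = 0.940).

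In the methyl donor cycle, which makes the S-adenosylmethionine that DNMT enzymes consume, 5 of 6 genes were tested, with 4 higher, 1 lower and a median of 0.10. Of all genes tested, 45.5% were above 0. Without KO+OE replicate 1 the list had 2 higher and 3 lower, and rescaling without mitochondrial transcripts left all 5 higher. AHCY, which clears the inhibitory product S-adenosylhomocysteine, was at 566.48 and 578.34 TPM in the controls and at 571.6 and 567.39 TPM in KO+OE. MAT2A, which makes S-adenosylmethionine, was at 19.34 and 19.73 TPM in the controls and at 22.38 and 18.19 TPM in KO+OE. Both overlapped between the groups. MTRR, which keeps methionine synthase active, had the largest difference of the list and is named after its values were seen. It was at 1.16 and 2.4 TPM in the controls and at 3.19 and 2.84 TPM in KO+OE (log2 fold change 0.57, interval -0.09 to 1.22, limma adjusted p = 0.931).

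Base excision repair, in a list that also held other glycosylases, had 11 of 12 genes tested. There 8 were higher and 3 lower, with a median of 0.05, where 45.5% of all genes tested were above 0. The lean rested on KO+OE replicate 1, without which 4 were higher and 7 lower. APEX1, the nuclease that cuts at the emptied site, was at 292.65 and 300.5 TPM in the controls and at 300.95 and 291.16 TPM in KO+OE. PARP1, a sensor of strand breaks, was at 101.59 and 102.57 TPM in the controls and at 105.35 and 100.8 TPM in KO+OE. Both overlapped between the groups and were far more abundant than TDG and MBD4, which act before them.

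Of 18 proteins that target or assist the methyltransferases, 15 were tested, with 6 higher, 9 lower and a median of -0.0045. Without KO+OE replicate 2 the list had 8 higher and 7 lower. Of the 15, 3 were higher and 4 lower without overlap, beside 14.5% and 19.6% of all genes tested. TRIM28, the corepressor that brings silencing to repeats and imprinted loci, was at 1057.37 and 1065.53 TPM in the controls and at 1083.97 and 1126.59 TPM in KO+OE, without overlap (log2 fold change 0.06, limma adjusted p = 0.931). EHMT2, a histone H3 lysine methyltransferase, was at 87.96 and 90.01 TPM in the controls and at 86.68 and 86.31 TPM in KO+OE. PCNA, the replication clamp that DNMT1 binds, was at 49.07 and 50.08 TPM in the controls and at 50.94 and 50.87 TPM in KO+OE. EHMT2, lower in KO+OE, and PCNA, higher, did not overlap between the groups either. HELLS, a chromatin remodeller needed for methylation of repeats, is named after its values were seen. It was at 3.29 and 3.86 TPM in the controls and at 2.98 and 1.91 TPM in KO+OE, without overlap (log2 fold change -0.42, interval -0.94 to 0.09, limma adjusted p = 0.931). DPPA3, which inhibits UHRF1, was at 0.11 and 0 TPM in the controls and at 0 and 0.15 TPM in KO+OE.

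Of 7 genes around the TET enzymes 6 were tested, and all 6 were below 0, where 54.5% of all genes were, with a median of -0.08. The signs of IDH2 (-0.012) and OGT (-0.0043), which modifies proteins with N-acetylglucosamine and binds TET enzymes, were not stable. Both turned above 0 under each of 3 other scalings, which left 4 of 6 below 0, and without control replicate 1 only 3 of 6 were. IDH2, a mitochondrial source of the TET cosubstrate 2-oxoglutarate, was at 88.09 and 85.17 TPM in the controls and at 82.57 and 89.34 TPM in KO+OE. IDH1, its cytosolic counterpart, was at 71.52 and 67.44 TPM in the controls and at 65.44 and 60.52 TPM in KO+OE. IDH1 did not overlap between the groups (log2 fold change -0.14, unadjusted p = 0.0685, limma adjusted p = 0.931). CXXC5, a CpG-binding partner of TET2, and D2HGDH, which clears the TET inhibitor 2-hydroxyglutarate, did not overlap either and are named after their values were seen. CXXC5 was at 33.66 and 31.94 TPM in the controls and at 31.41 and 29.41 TPM in KO+OE, and D2HGDH was at 2.64 and 3.23 against 2.02 and 2.33 TPM. A non-overlap in 3 of 6 stands beside 19.6% of all genes in this direction, and no difference in the list passed the test.

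**Figure D4:**
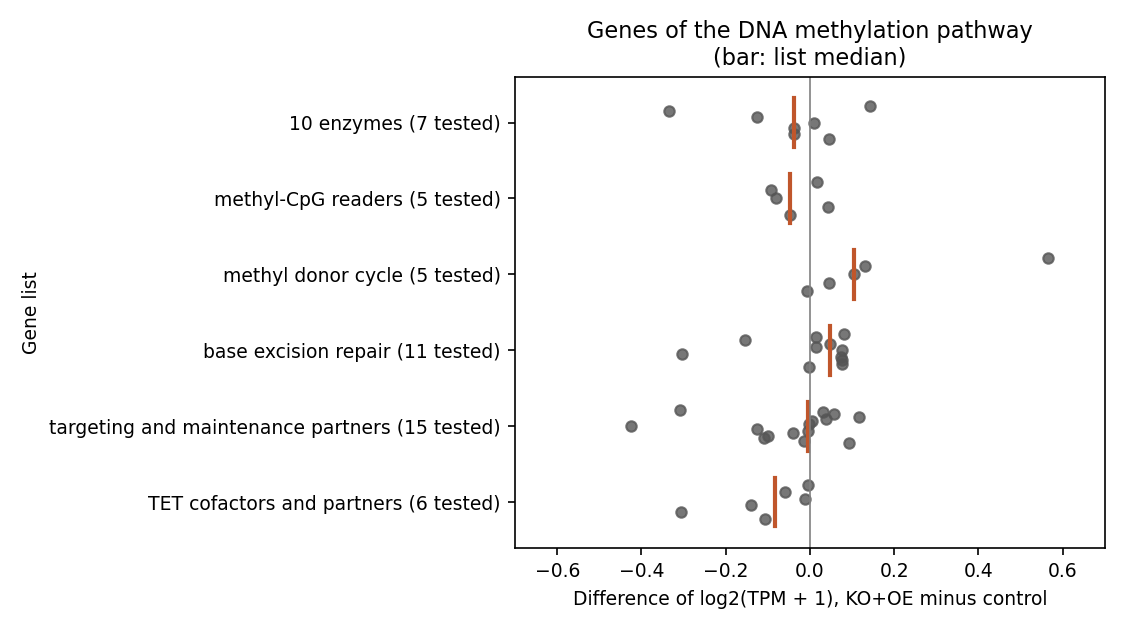
Difference of log2(TPM + 1) between KO+OE and control for each gene tested of the 10 enzymes and of 5 lists of pathway genes. Points are genes, shifted vertically for legibility, and bars are list medians, from -0.08 for the TET cofactors and partners to 0.10 for the methyl donor cycle. The point farthest to the right is MTRR (0.57) and the point farthest to the left HELLS (-0.42).

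Germline genes are commonly held silent by promoter methylation. Methylation was not measured in these libraries, and whether the enzymes set the levels of these genes was not tested. None of 10 germline genes reached a mean of 1 TPM, and the highest single value was 0.41 TPM, for DAZL in control replicate 2. Their summed level, made of values near the floor, was 0.56 to 1.16 TPM in the controls and 0.39 to 0.56 TPM in KO+OE. SYCE1 was at 0.18 and 0.38 TPM in the controls and at 0.05 and 0.24 TPM in KO+OE, DAZL was at 0.09 and 0.41 against 0.08 and 0.11 TPM, and DDX4 was listed at 0 in all libraries.

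For DNMT3B, TET1 and TDG, the most abundant of the methyltransferases, the TET enzymes and the glycosylases, the genes of at least 10 TPM with the most similar profile were found by the root mean square difference of centred log2(TPM + 1) over the 4 libraries. For DNMT3B 2202 of 5527 genes lay within 0.05, CPZ (0.00236) and DHCR7 (0.00361) among the closest. For TET1 only 12 of 5528 genes lay within 0.05, led by MECR (0.0213), MSTO1 (0.0297) and PPP1R14A (0.0309). MECR was at 43.54 and 41.47 TPM in the controls and at 34.78 and 33.79 TPM in KO+OE. Adding 1 TPM shrinks the differences of TET1 more than those of genes of at least 10 TPM. A similar profile on this scale is therefore not an equal ratio of TPM, which was 0.648 for TET1. For TDG 282 of 5528 genes lay within 0.05, led by SLC2A1 (0.00988), RNF185 (0.0110) and UBFD1 (0.0111). With 4 libraries such likeness is a description of 4 values and says nothing of shared control.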

How the data were processed

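RNA-seq of 2 control and 2 KO+OE libraries was analysed, with groups and replicate numbers from the sample titles. The deposited table gives 60671 Ensembl genes without naming a unit. The authors' values are read as TPM, since each column holds decimals and sums to 986853 to 987078. Depth is therefore unknown, and 0 other per-sample columns were present. The submitters' processing notes name HISAT2, featureCounts, Subread, DESeq2 and hg38. The annotation version is not given in the sources used here. The submitters' count test could not be used on TPM. Instead, log2(TPM + 1) of the 12319 genes whose mean reached 1 TPM was compared with limma 3.58.1 (lmFit, eBayes with a mean-dependent prior, two-sided, group as the only term) in R 4.3.3, with Benjamini-Hochberg adjustment. Fold changes on this scale understate changes of low genes. The step was tested on simulated data. Single ratios were compared by exact permutation over libraries. Positions came from RefSeq GRCh38.p14, where all 10 symbols matched. Transcript lengths, GC content and 3′ ends came from GENCODE release 44 canonical transcripts, and 98.6% of genes tested had one. Members and gene lists were chosen with earlier results of these data known. Of each pathway list the 2 genes with the highest mean and any with an unadjusted p under 0.05 were named, and PCNA, DPPA3, UHRF2, OGT, MTRR, HELLS, CXXC5 and D2HGDH were added after their values were seen. Some genes are not reported here. The list of proteins that read methylated DNA or resemble such readers was shortened after its values were known, for a reason unrelated to them. This moved its median away from 0. Alternatives were pseudocounts of 0.1 and 5, no filter or 5 TPM, 3 other scalings, limma without the mean-dependent prior, a replicate block and leaving out each library. Python 3.11.15, pandas 2.3.3, numpy 2.4.6, scipy 1.17.1 and matplotlib 3.10.9 were used.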

Additional observations from a re-analysis of the deposited data

How the results depend on the processing

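The count of enzymes called was 0 of those tested under every alternative. Over all genes the count went from 1 to 0 with a pseudocount of 0.1 (670 genes at an unadjusted p under 0.05 in limma), a pseudocount of 5 (634), no filter (1314 of 26942 genes), a filter at 5 TPM (412 of 7393), quantile normalization (647) and the replicate block (673), and was 0 to 1 with 1 library left out. The enzymes' median of -0.04 was 0.0091 without a filter, where all 10 entered, and -0.05 to -0.02 with 1 library left out. In those fits limma assumes that the lone library of a group varies like the other group. NUDT21 then ranged from -0.012 (without control replicate 2) to 0.066, DNMT3A from -0.22 to 0.14 (without control replicate 1), MBD4 from -0.16 (without control replicate 1) to 0.18 and UHRF1 from -0.074 (without KO+OE replicate 1) to 0.36. These were the 4 reversals among 32 differences of single genes with a library left out, and 68 of 68 under the other alternatives kept their sign and their side of the threshold. The log2 ratio of DNMT3B to DNMT3A turned to -0.00012 with a pseudocount of 1 and was -0.19 to 0.19 with 1 library left out, and that of TETs to DNMTs was -0.19 and -0.35 to -0.21.

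Libraries of the same number did not deviate together (correlation -0.0485). With 2 libraries per group this cannot show whether libraries of the same number were handled together. The numbers are used here as names only. With the replicate block TET1 kept its difference of -0.34 (limma adjusted p = 0.897), and no enzyme was called.

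The TPM values come without counts, so their counting error could not be estimated. For genes of 1 to 2 TPM, where UHRF1, TET1 and MBD4 lie, the median interval reached 0.521 to either side on the log2 scale, against 0.117 for genes of at least 50 TPM such as DNMT3B. These intervals are not adjusted for the number of genes tested, so 0.521 is not the smallest difference that the adjusted test detects. Without the mean-dependent prior, the limma interval of TET1 left out 0 (-0.52 to -0.15, unadjusted p = 0.00801), yet its adjusted p was 0.852. Differences of the low enzymes below 0.521, and larger ones as well, can therefore have been missed here.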
